A study of Mus musculus with 4 samples.

Results

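Glucose, glycogen and fructose metabolism in the liver was examined through 36 genes of the sugar pathways, given as a list of symbols and found in the table of 46603 Ensembl genes by their identifiers. All 36 of the 36 passed edgeR's filter on low counts, among 13001 genes tested. The libraries came from total liver RNA of 4 male C57BL/6 J mice that all carried HuR flox/flox alleles. Control mice 1 and 2 had received an AAV8 vector in which the thyroxine-binding globulin promoter (TBGP), active in hepatocytes, drove GFP, and mice 3 and 4, labelled HuR hKO, had received the same kind of vector driving Cre recombinase. All 4 mice were on WDSW, a Western diet with 42% of its calories from fat and 0.1% cholesterol, with a drink of 23.1 g/L fructose and 18.9 g/L glucose, for 4 weeks. Since every mouse drank the sugar water, the comparison is of the labelled groups on 1 diet and holds no animal on chow. The labels match the groups for age without giving it, and the time of day and the hours since the last meal are not given in the sources used here.

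The liver takes up sugar after a meal and gives glucose back between meals. Glycolysis splits glucose to pyruvate, gluconeogenesis runs the other way through its own enzymes at the irreversible steps, and glycogen is the store between them. Fructose is taken up almost wholly by the gut and liver, where ketohexokinase traps it and its carbon enters glycolysis below the regulated phosphofructokinase step. Pyruvate dehydrogenase passes the carbon on to acetyl-CoA, and the pentose phosphate pathway makes NADPH and ribose.

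The labels were checked first with Elavl1, the gene of HuR. Elavl1 had 28.4 and 25.9 CPM (counts per 1000000 of the library's TMM-scaled total) in control mice 1 and 2, and 37.7 and 34.4 CPM in mice 3 and 4. The targeted gene thus goes against the labels (log2 fold change 0.41, edgeR quasi-likelihood unadjusted p = 0.016, adjusted p = 0.545). The counts are per gene and do not show which part of the transcript was read. Why Elavl1 was not lower was not tested, and every direction given here is that of the labels. The vector targets hepatocytes, so the other cells of the liver keep the gene. The libraries held between 13032095 and 19715577 counts, the largest being that of mouse 4. Hepatocyte markers summed to between 72939 and 83639 CPM, and 10 of 10 were tested. The markers of other cells were low against this, with Kupffer cell and macrophage sums of 229 to 265 CPM, lymphocyte sums of 6.25 to 34.2 CPM, neutrophil sums of 1.54 to 3.29 CPM and 0 counts of Ly6g in all 4 mice. Of 8 stellate cell markers, 2 were higher in the libraries labelled HuR hKO at an unadjusted p under 0.05, against 4.04% of all genes. These were Col1a1 and Col3a1 (log2 fold changes 0.63 and 0.59), while Acta2 (-0.83) and Des (-0.30) were fitted lower and not called. The lowest adjusted p of the stellate markers was 0.522 in edgeR. The 8 endothelial markers had fitted log2 fold changes of 0.17 to 0.33, none of them called. Cholangiocyte markers summed to 56 and 28.1 CPM in control mice 1 and 2, and 40.5 and 50.8 CPM in mice 3 and 4. Control mouse 1 stood apart in Krt19, with 12.2 CPM against 0.373, 0.488 and 1.81 CPM in mice 2, 3 and 4. Krt7, Epcam and Cldn7 were also highest in control mouse 1, while Sox9 (3.45 CPM) and Spp1 (41.9 CPM) were highest in mouse 4. The sum of 7 erythroid markers was 363 and 450 CPM in the control mice and 488 and 711 CPM in mice 3 and 4. In whole liver, fewer cells of a type and less RNA per cell cannot be told apart.

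Short stretches of DNA in front of some of these genes are known for their answer to sugar or fasting. The carbohydrate response element is a pair of E-box-like motifs (CANGNG and CNCNTG, 5 bases apart) bound by ChREBP, the E-box CACGTG is the core that many such factors share, and ACGTCA is the core of the cAMP response element. RefSeq's table of windows, each 250 bases before to 50 bases after a start site on GRCm38.p6, gave 49 windows for 34 of the 36 genes. The pair was found in 2 of the 49 windows, those of Pklr and Gbe1 (4.08%, against 0.557% of 32851 windows over all genes). CACGTG was found in 12.2% of the genes' windows and 7.15% of all windows, and ACGTCA in 12.2% and 7.51%. TATAAA was found in 8.16% and 13.6%. Windows of a gene can overlap, so a site can be counted more than once, as in Slc37a4. Counted by gene, the shares were 17.6% of the 34 genes and 8.09% of all genes for CACGTG. They were 14.7% and 8.37% for ACGTCA, 11.8% and 15.7% for TATAAA, and 5.88% and 0.64% for the pair. All motifs were searched on both strands, and CACGTG can be one side of the pair. The windows of 4 genes are printed below with the motif in capitals, since they show the elements in genes of 4 different roles, and the genes were chosen after the matches were seen. A match describes letters only and is not a bound site.
Pklr, liver pyruvate kinase, plus strand of chr3:89136373-89136672, with the pair beginning 170 bases before the start site: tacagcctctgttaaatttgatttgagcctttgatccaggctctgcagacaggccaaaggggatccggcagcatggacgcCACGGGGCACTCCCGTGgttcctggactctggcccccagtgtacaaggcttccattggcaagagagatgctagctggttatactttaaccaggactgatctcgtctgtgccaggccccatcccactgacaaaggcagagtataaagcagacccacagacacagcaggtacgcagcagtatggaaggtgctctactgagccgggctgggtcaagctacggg
Gbe1, glycogen branching enzyme, plus strand of chr16:70313699-70313998, with the pair beginning at base 8 of the transcribed stretch: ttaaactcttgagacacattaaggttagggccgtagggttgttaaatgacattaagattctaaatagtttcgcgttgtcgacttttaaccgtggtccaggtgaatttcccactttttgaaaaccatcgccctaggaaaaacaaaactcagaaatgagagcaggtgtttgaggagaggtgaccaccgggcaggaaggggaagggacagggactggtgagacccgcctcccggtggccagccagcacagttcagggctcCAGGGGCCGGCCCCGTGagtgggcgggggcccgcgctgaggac
Khk, ketohexokinase, plus strand of chr5:30921309-30921608, with CACGTG beginning 71 bases before the start site: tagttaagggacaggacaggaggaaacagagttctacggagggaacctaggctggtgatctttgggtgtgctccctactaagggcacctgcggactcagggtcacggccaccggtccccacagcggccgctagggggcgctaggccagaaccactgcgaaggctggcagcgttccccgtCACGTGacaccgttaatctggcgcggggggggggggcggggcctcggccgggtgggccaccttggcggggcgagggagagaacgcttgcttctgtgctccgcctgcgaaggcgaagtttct
Pck1, cytosolic phosphoenolpyruvate carboxykinase, plus strand of chr2:173152823-173153122, with ACGTCA beginning 91 bases before the start site: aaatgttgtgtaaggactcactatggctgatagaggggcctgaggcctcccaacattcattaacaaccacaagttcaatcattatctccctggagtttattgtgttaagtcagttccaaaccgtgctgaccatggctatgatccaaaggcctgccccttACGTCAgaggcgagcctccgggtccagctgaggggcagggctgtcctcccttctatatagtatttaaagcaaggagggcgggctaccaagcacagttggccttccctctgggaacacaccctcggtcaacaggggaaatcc

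The 36 genes spanned a wide range of levels. Levels per kb used the union of all annotated exons of a gene, which can be longer than its mRNA. This length was 4133 bases for Gapdh, 3429 for Pck1 and 1702 for Fbp1, so the order of genes depends on the annotation. Per kb of exon, Pck1 was the most abundant with a mean of 698 CPM per kb over the 4 mice, followed by Fbp1 with 670 CPM per kb and Khk with 501.2 CPM per kb. The mice of Pck1 (556.7 to 866 CPM per kb) and of Fbp1 (592.6 to 748.8 CPM per kb) overlapped, so that their order is within the spread between animals. At the other end stood Pfkfb3 with 3.86, G6pdx with 1.11 and Pck2 with 0.588 CPM per kb. By this measure Khk, the entry step of fructose, lay well above Pklr, the last step of glycolysis, which had 149.9 CPM per kb.

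**Figure D1:**
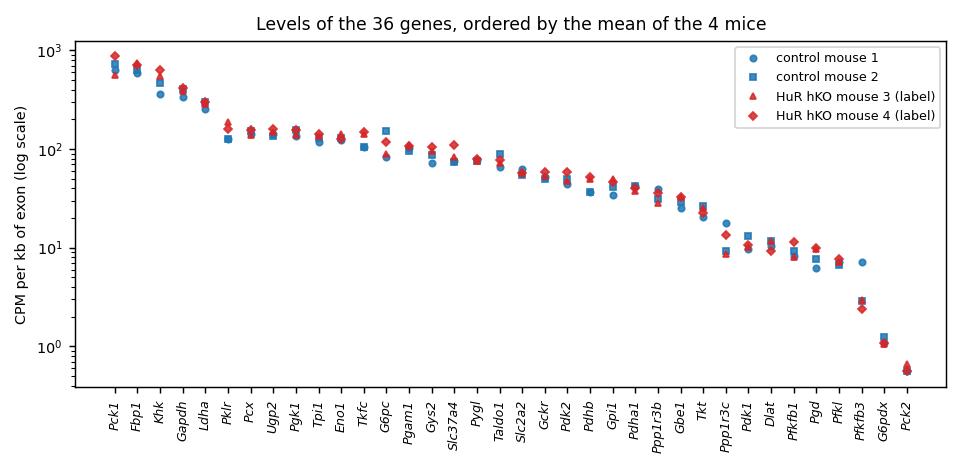
Level of each of the 36 genes in each mouse, in CPM per kb of exon on a log scale, ordered by the mean of the 4 mice. Blue points are control mice and red points are mice labelled HuR hKO. Levels ran from 698 CPM per kb for Pck1 to 0.588 CPM per kb for Pck2, and the symbols of a gene lie close together beside this range.

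The 2 fructose genes were higher in the libraries labelled HuR hKO, as were 2 genes of glycolysis and 1 each of gluconeogenesis, pyruvate dehydrogenase and the pentose phosphate pathway, each by less than 1.5-fold. Most genes of these roles, and all 6 of glycogen handling, did not pass the test. By the edgeR quasi-likelihood test at an unadjusted p under 0.05, 7 of the 36 genes were higher (Khk, Pgd, Tkfc, Pdhb, Pklr, Slc37a4 and Gpi1, with folds of 1.28 to 1.42) and 1 was lower (Pfkfb3). Over all 13001 genes, 4.04% were higher and 3.39% were lower by this rule. None of the 36 had an adjusted p under 0.05 with edgeR (lowest adjusted p = 0.427), against 0.0231% of all genes. Both libraries labelled HuR hKO lay above both control libraries for 15 of the 36, against 19.3% of all genes, and below both for 1 of the 36 (Pdha1), against 18.8%. For the remaining 20 genes the groups overlapped. The fitted log2 fold change was above 0 for 25 genes and below 0 for 11, with a median of 0.11 beside 0.00 over all genes. Together the 36 genes took 1.32% and 1.42% of the counts in control mice 1 and 2, and 1.49% and 1.53% in mice 3 and 4. The list was chosen with results of these data known, so these counts are a description. The directions follow labels that Elavl1 goes against. With 1 mouse left out, between 1 and 5 of the 36 were higher, and only Pdhb was without control mouse 1.

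**Figure D2:**
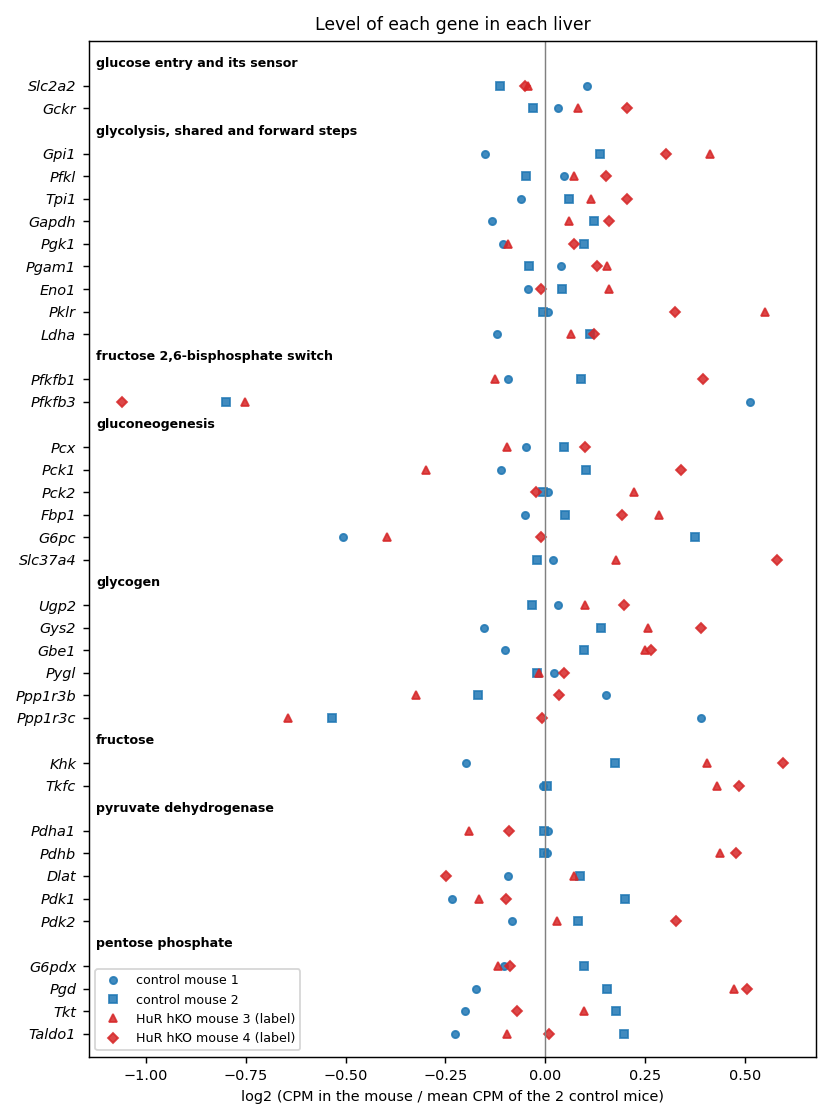
Level of each gene in each mouse as the log2 of its CPM over the mean CPM of the control mice, grouped by role. Circles and squares are control mice 1 and 2, triangles and diamonds are mice 3 and 4, labelled HuR hKO. Khk, Tkfc, Pdhb, Pgd and Pklr have both red symbols to the right of both blue ones, while for Pfkfb3, G6pc and Ppp1r3c the control mice lie far apart.

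Both fructose genes were higher in the libraries labelled HuR hKO, both with groups that did not overlap. Over all genes, 4.04% were called higher, and 19.3% had both libraries labelled HuR hKO above both control libraries. Khk, ketohexokinase, which phosphorylates fructose, is at chr5:30921431-30931248 (GRCm38, plus strand). Khk had 649.8 and 840.4 CPM in control mice 1 and 2, and 986.2 and 1126 CPM in mice 3 and 4. The control mice differed from each other by 0.37 on the log2 scale, and the labelled groups by 0.50 ± 0.177 (standard error; edgeR quasi-likelihood unadjusted p = 0.0213, adjusted p = 0.574). The counts are per gene, so the A and C isoforms of ketohexokinase cannot be told apart here. Tkfc, triokinase, which phosphorylates the glyceraldehyde left from fructose cleavage, is at chr19:10587791-10605654 (minus strand). Tkfc had 485 and 488.6 CPM in the control mice, and 655.4 and 681.1 CPM in mice 3 and 4. Here the groups stood clearly apart, with differences within a group of 0.01 and 0.06 and between the groups of 0.46 ± 0.138 on the log2 scale (edgeR unadjusted p = 0.0106, adjusted p = 0.493). Tkfc overlaps Ddb1 on the opposite strand, which had 13063 counts over the 4 mice beside 35214 of Tkfc, and Ddb1 had a log2 fold change of 0.16. The use of strand in the counting is not given in the sources used here.

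Of 9 genes of glycolysis, 2 were higher at an unadjusted p under 0.05, against 4.04% of all genes. The other 7 had log2 fold changes between -0.01 and 0.16. Pklr, liver pyruvate kinase, the irreversible last step and a textbook ChREBP target, is at chr3:89136142-89146784 (plus strand), and its window is printed above. Pklr had 413.1 and 409.7 CPM in the control mice, and 602.1 and 515 CPM in mice 3 and 4. Its log2 fold change was 0.44 ± 0.147 (edgeR unadjusted p = 0.0165, adjusted p = 0.548). Both mice labelled HuR hKO were above both control mice, and mouse 3 was the highest. Pklr is also the pyruvate kinase gene of red cells. The erythroid marker sum was 363 and 450 CPM in the control mice, and 488 and 711 CPM in mice 3 and 4. The part of red cells in the difference of Pklr was not tested. Pklr overlaps Hcn3 on the other strand, which had 1912 counts beside 29308.

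Gpi1, glucose-6-phosphate isomerase, which links the glycogen, glucose and pentose routes to glycolysis, is at chr7:34201330-34230336 (minus strand). Gpi1 had 219.1 and 267.1 CPM in the control mice, and 323.4 and 299.8 CPM in mice 3 and 4. Its log2 fold change of 0.36 ± 0.149 was close to the distance of 0.29 between the control mice (edgeR unadjusted p = 0.0426, adjusted p = 0.646). Pfkl, liver phosphofructokinase and the step that fructose bypasses, had 47.3 and 44.3 CPM in the control mice, and 48.1 and 50.9 CPM in mice 3 and 4. The 4 values lay close together, and the groups were apart by 0.11 on the log2 scale with an interval of -0.18 to 0.41. Ldha, lactate dehydrogenase, had 833.5 and 979.4 CPM in the control mice, and 948.1 and 986.3 CPM in mice 3 and 4, and its groups overlapped (log2 fold change 0.09). The shared enzymes in the middle of the pathway had log2 fold changes of 0.16 for Tpi1, 0.14 for Pgam1, 0.11 for Gapdh, 0.08 for Eno1 and -0.01 for Pgk1. Of these, Tpi1 and Pgam1 had both mice labelled HuR hKO above both control mice. Gapdh has 68 near copies in the table (at least 95% identity over at least 50% of the transcript), which held 4.35% as many counts as Gapdh itself, and the counts of Pgk1 and its 2 near copies can be mixed in the same way.

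At entry into the cell, Slc2a2, the glucose and fructose transporter GLUT2, had 363.4 and 312.4 CPM in the control mice, and 328 and 326 CPM in mice 3 and 4. The values of mice 3 and 4 lay between those of the control mice. Gckr, the regulatory protein that holds glucokinase in the nucleus, had 223.5 and 214 CPM in the control mice, and 231.5 and 252.1 CPM in mice 3 and 4, a log2 fold change of 0.14 with an interval of -0.16 to 0.45. Neither gene passed the test.

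The fructose 2,6-bisphosphate switch, which sets the balance of glycolysis and gluconeogenesis, held the one gene of the 36 that was lower. Pfkfb3, the inducible kinase, is at chr2:11471433-11554077 (minus strand). Pfkfb3 had 54.1 and 21.8 CPM in control mice 1 and 2, and 22.5 and 18.2 CPM in mice 3 and 4. Control mouse 2 lay below mouse 3, so the groups overlapped, and the high value was that of control mouse 1 alone. This mouse also stood apart in Krt19 and in genes of other lists, such as Lpin1 and Onecut1. Lpin1 had 394.3 CPM in control mouse 1 and 48, 118.6 and 122.6 CPM in mice 2, 3 and 4. Onecut1 had 70.3 CPM against 9.03, 27.7 and 7.54 CPM. The part of other cells, or of any other difference of control mouse 1, in its Pfkfb3 value was not tested. The log2 fold change of Pfkfb3 was -0.90 ± 0.356 (edgeR unadjusted p = 0.0349, adjusted p = 0.619), the only one of the 36 with a fold of 1.8 or more. Without control mouse 1 it was -0.11, and the DESeq2 Wald test (unadjusted p = 0.151) and limma-voom (unadjusted p = 0.0666) did not call it with all mice. Pfkfb1, the liver isoform that is both kinase and phosphatase, had 32.9 and 37.3 CPM in the control mice, and 32.2 and 46.2 CPM in mice 3 and 4. Mouse 3 was the lowest and mouse 4 the highest of the 4, and the log2 fold change was 0.16 with an interval of -0.27 to 0.59. Pfkfb1 had 2268 counts over the 4 mice and overlaps Apex2, on the other strand, with 521.

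Of the 6 gluconeogenic genes, 1 was higher at an unadjusted p under 0.05, against 4.04% of all genes. Slc37a4, the transporter that brings glucose 6-phosphate to glucose-6-phosphatase in the endoplasmic reticulum, is at chr9:44396852-44402968 (plus strand). Slc37a4 had 214.4 and 208.4 CPM in the control mice, and 239 and 316.1 CPM in mice 3 and 4. The control mice were nearly equal and mouse 4 was well above mouse 3, and the log2 fold change was 0.39 ± 0.162 (edgeR unadjusted p = 0.0412, adjusted p = 0.641). G6pc, the catalytic subunit that works with Slc37a4, had 199.3 and 367.3 CPM in the control mice, and 215.2 and 281.3 CPM in mice 3 and 4. Mice 3 and 4 both lay between the control mice, which differed by 0.88 on the log2 scale against a log2 fold change between the groups of -0.19. Without control mouse 2 this became 0.32, and without control mouse 1 it was -0.58 (edgeR unadjusted p = 0.0164).

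Pck1, which makes phosphoenolpyruvate from oxaloacetate and carries the cAMP response element core printed above, had 2174 and 2519 CPM in the control mice, and 1909 and 2970 CPM in mice 3 and 4. The lowest and the highest of the 4 mice were both in the group labelled HuR hKO, and the log2 fold change was 0.06 with an interval of -0.47 to 0.58. With 2 mice a group, the fit does not tell apart true differences within that interval. Fbp1, fructose-1,6-bisphosphatase, had 1009 and 1083 CPM in the control mice, and 1274 and 1195 CPM in mice 3 and 4. Its groups stood apart, but its log2 fold change of 0.24 ± 0.151 did not pass the test (edgeR unadjusted p = 0.15, adjusted p = 0.765). Pcx, pyruvate carboxylase, and Pck2, the mitochondrial carboxykinase, had log2 fold changes of 0.00 and 0.10, with overlapping groups.

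None of the 6 glycogen genes of the list passed the test. Of 19 further glycogen genes tested, 1 was higher and 1 lower, named below, against 4.04% and 3.39% of all genes. Both mice labelled HuR hKO lay above both control mice for 3 of the 6, all of which build glycogen, against 19.3% of all genes. They lay below both for 0 of the 6, against 18.8%. Gys2, liver glycogen synthase, had 190.1 and 232.8 CPM in the control mice, and 252.7 and 277.1 CPM in mice 3 and 4 (log2 fold change 0.33 ± 0.15, edgeR unadjusted p = 0.0612, adjusted p = 0.675). Gbe1, whose window with the E-box pair is printed above, had 135.5 and 155.4 CPM in the control mice, and 172.7 and 174.6 CPM in mice 3 and 4 (log2 fold change 0.26 ± 0.133, edgeR unadjusted p = 0.0897, adjusted p = 0.704). Ugp2, which makes the UDP-glucose that glycogen synthase builds on, had a log2 fold change of 0.15. For all 3 of these genes both mice labelled HuR hKO were above both control mice. Pygl, liver glycogen phosphorylase, had 535.2 and 519.2 CPM in the control mice, and 521.1 and 545 CPM in mice 3 and 4, a log2 fold change of 0.02 with an interval of -0.30 to 0.33.

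The protein phosphatase 1 subunits that target glycogen varied widely within the groups. Ppp1r3b, the main liver form, had 243.2 and 194.8 CPM in the control mice, and 175 and 224.4 CPM in mice 3 and 4, a log2 fold change of -0.13. Ppp1r3c had 47.9 and 25.3 CPM in the control mice, and 23.4 and 36.4 CPM in mice 3 and 4. Its difference between the control mice was -0.92 and that between mice 3 and 4 was 0.64, both wider than the log2 fold change of -0.29. It was the lowest log2 fold change of the 6 glycogen genes of the list, and it turned to 0.23 without control mouse 1.

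In the pyruvate dehydrogenase complex, 1 of the 2 genes of the E1 enzyme was higher and the other was not called. Over all genes, 4.04% were called higher. Pdhb, the beta subunit of E1, is at chr14:8165996-8173025 (minus strand). Pdhb had 143.1 and 142.5 CPM in the control mice, and 193.2 and 198.8 CPM in mice 3 and 4. The mice of a group were within 0.04 of each other on the log2 scale, and the groups differed by 0.46 ± 0.125 (edgeR unadjusted p = 0.00611, adjusted p = 0.427), the smallest p of the 36. Pdha1, the alpha subunit, had 158.9 and 157.8 CPM in the control mice, and 138.7 and 148.7 CPM in mice 3 and 4. Both mice labelled HuR hKO were below both control mice, and the log2 fold change was -0.14 with an interval of -0.43 to 0.15 (edgeR unadjusted p = 0.298, adjusted p = 0.844). Dlat, the E2 subunit, had a log2 fold change of -0.08 with overlapping groups. The difference between Pdhb and Pdha1 was not itself tested.

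The kinases that switch the complex off did not pass the test. Pdk1 had 74.8 and 101 CPM in the control mice, and 78.3 and 82.1 CPM in mice 3 and 4, with a log2 fold change of -0.13. Pdk2 had 139.2 and 156.1 CPM in the control mice, and 150.5 and 185.1 CPM in mice 3 and 4, with a log2 fold change of 0.19. In both the groups overlapped.

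Of the 4 pentose phosphate genes of the list, Pgd was higher, against 4.04% of all genes, and the other 3 were not called. Pgd, 6-phosphogluconate dehydrogenase, the second NADPH-making step, is at chr4:149149991-149166771 (minus strand). Pgd had 39.7 and 49.9 CPM in the control mice, and 62.2 and 63.6 CPM in mice 3 and 4. Its groups did not overlap, and the log2 fold change was 0.49 ± 0.147 (edgeR unadjusted p = 0.0103, adjusted p = 0.49). G6pdx, glucose-6-phosphate dehydrogenase, the first such step, had 3.31 and 3.81 CPM in the control mice, and 3.28 and 3.34 CPM in mice 3 and 4. It rested on 205 counts in all and lies beside 3116 counts of the overlapping Ikbkg on the other strand, and its log2 fold change of -0.10 has the wide interval of -0.73 to 0.52. Tkt and Taldo1, which shuttle the sugars back to glycolysis, had log2 fold changes of 0.02 and -0.04.

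**Figure D3:**
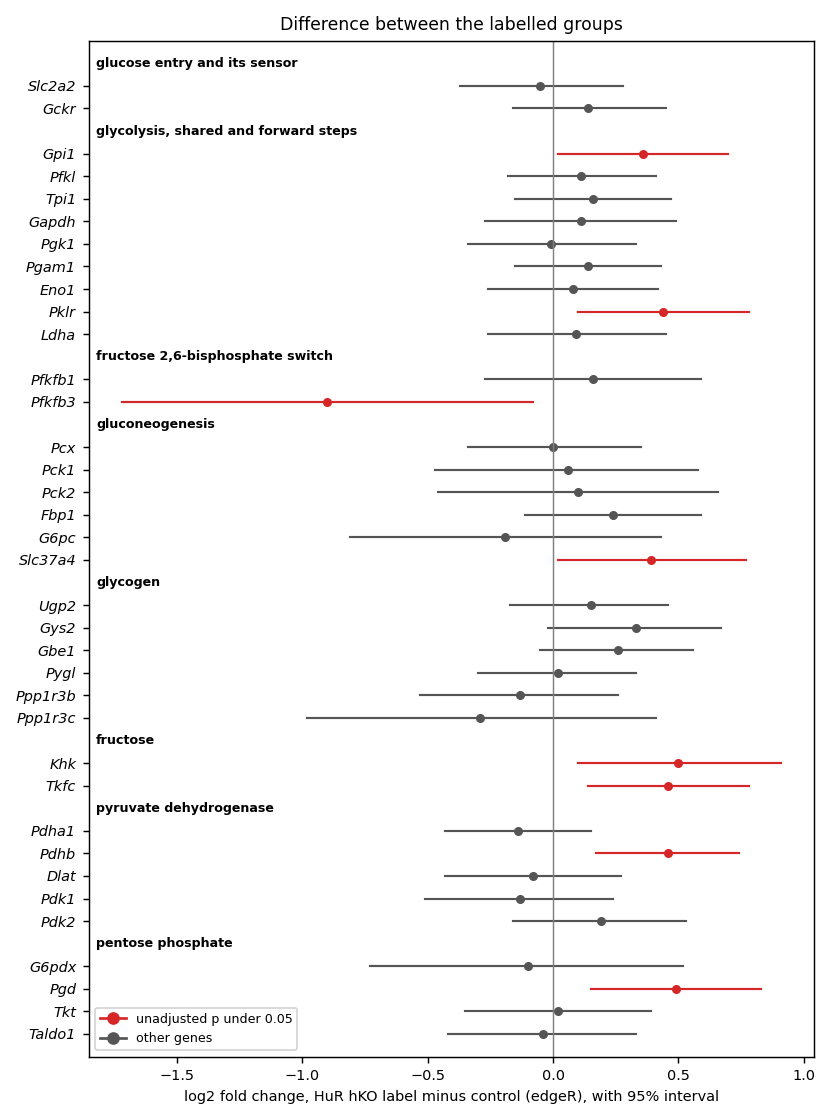
Log2 fold change of each gene between the libraries labelled HuR hKO and the control libraries, with its 95% interval from the edgeR fit, grouped by role. Red marks an unadjusted p under 0.05, which 7 higher genes and Pfkfb3 reached. The intervals of the other 28 genes cross 0.

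Opposing enzymes were also compared within each mouse, as a ratio of counts that needs no scaling between libraries. With 2 mice in each group an exact permutation test cannot give a p below 0.333. Pygl to Gys2, breakdown against synthesis of glycogen, was 2.82 and 2.23 in the control mice, and 2.06 and 1.97 in mice 3 and 4. It was the only one of 4 ratios whose groups did not overlap (log2 difference -0.32, two-sided exact permutation p = 0.333, the smallest possible). For single genes, both libraries labelled HuR hKO lay above both control libraries in 19.3% of all genes and below both in 18.8%. Pck1 to Pklr was 5.26 and 6.15 in the control mice, and 3.17 and 5.77 in mice 3 and 4, so that only mouse 3 stood low (log2 difference -0.41, exact permutation p = 0.667), and without mouse 3 the difference was 0.02. G6pc to Pklr, with 0.482, 0.897, 0.357 and 0.546 in mice 1 to 4, and Fbp1 to Pfkl, with 21.3, 24.5, 26.5 and 23.5, also overlapped (log2 differences -0.57 and 0.13, exact permutation p = 0.667 for each). Adjusted over the 4 ratios, each exact permutation p was 0.667.

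**Figure D4:**
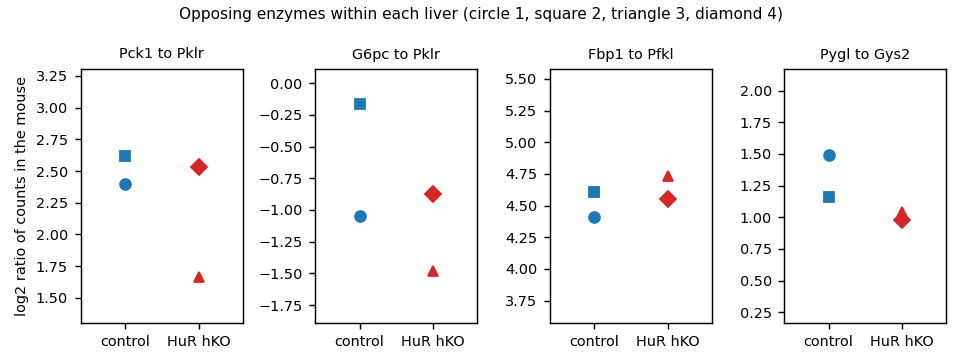
Log2 ratio of the counts of opposing enzymes within each mouse, with control mice in blue (circle 1, square 2) and mice labelled HuR hKO in red (triangle 3, diamond 4), each panel spanning the same range of the log2 scale. Only Pygl to Gys2 has both red symbols on one side of both blue ones, with log2 ratios of 1.49 and 1.16 in the control mice and 1.04 and 0.98 in mice 3 and 4.

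The 8 calls were not equally firm when each mouse was left out in turn, in fits that assume the lone mouse of a group varies like the others. Pdhb passed an unadjusted p under 0.05 in every such fit (edgeR unadjusted p of 0.0306 to 0.039, log2 fold change 0.44 to 0.46). Without control mouse 1 it was the only one of the 8 left, and G6pc was called lower. Without control mouse 2, Khk, Pgd, Gpi1, Pdhb and Pfkfb3 were called, together with Gys2 and Ppp1r3c, and Pfkfb3 had an adjusted p of 0.013 in edgeR. Without mouse 3, Khk, Tkfc, Pdhb and Slc37a4 were called, and without mouse 4, Pklr, Tkfc and Pdhb. The 7 higher genes had log2 fold changes above 0 in all of these fits, from 0.18 for Slc37a4 without mouse 4 to 0.70 for Khk without control mouse 2. Tkfc varied least after Pdhb, between 0.43 and 0.47.

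**Figure D5:**
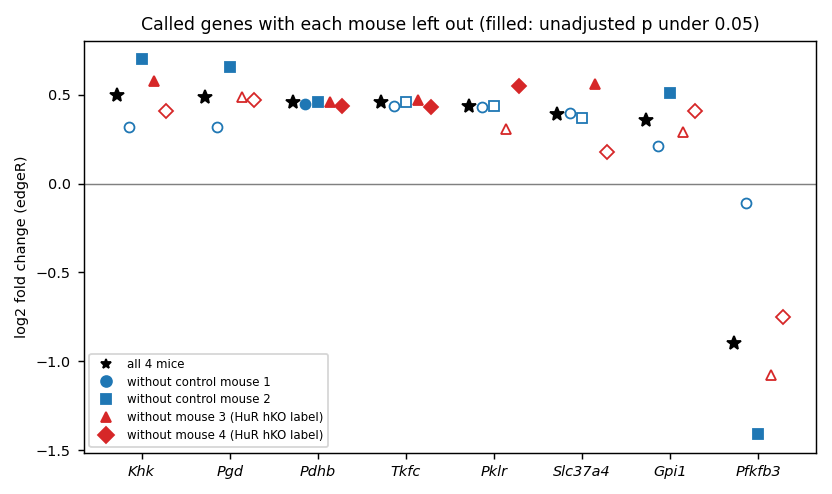
Log2 fold change of the 8 called genes with all 4 mice (star) and with each mouse left out, where a filled symbol marks an unadjusted p under 0.05 with edgeR. Pdhb is filled throughout, and Pfkfb3 runs from -1.41 without control mouse 2 to -0.11 without control mouse 1.

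HuR binds U-rich and AU-rich stretches, mostly in 3′ UTRs, and the pentamer ATTTA is the simplest mark of these. Counted after the fold changes were known, ATTTA occurred in the longest annotated 3′ UTR of 20 of the 36 genes (55.6%), against 70% of 11999 tested genes with a 3′ UTR. Khk, Tkfc, Pklr, Pgd and Gpi1 had 0 copies, Pdhb and Slc37a4 had 1 each, and Pfkfb3 had 6. The median log2 fold change was 0.00 for the 20 genes with the pentamer and 0.15 for those without, beside -0.02 and 0.06 over all genes. The 3′ UTRs of the 36 had a median of 887.5 bases against 1341 over all genes, and they held 1.4 copies of the pentamer per kb against 1.64.

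Of 109 further genes of the same pathways, 95 were tested, and 9 were higher and 2 lower at an unadjusted p under 0.05, against 4.04% and 3.39% of all genes, with a median log2 fold change of 0.01. Of the 8 that handle other steps of fructose, polyols and galactose, 3 were higher and none lower (median log2 fold change 0.16). None of the 95 had an adjusted p under 0.05 with edgeR, against 3 with the DESeq2 Wald test. Acly, ATP citrate lyase, which turns citrate into acetyl-CoA for fat synthesis, had 152.7 and 155.4 CPM in the control mice, and 264.3 and 276.9 CPM in mice 3 and 4 (log2 fold change 0.81 ± 0.128, edgeR adjusted p = 0.103). Aldh1b1, a mitochondrial aldehyde dehydrogenase, had 36 and 43.8 CPM in the control mice, and 67.2 and 85.2 CPM in mice 3 and 4 (log2 fold change 0.94 ± 0.166, edgeR adjusted p = 0.139). Galk1, galactokinase, had 69.4 and 81.1 CPM in the control mice, and 120.9 and 139.4 CPM in mice 3 and 4 (log2 fold change 0.79 ± 0.144, edgeR adjusted p = 0.139). In all 3 of these the groups stood apart by more than the mice of a group differed, and all 3 kept an unadjusted p under 0.05 in edgeR with each mouse left out.

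Other higher genes were Ppp1r3g, a glycogen-targeting phosphatase subunit (log2 fold change 1.24, from 2.71 and 4.41 CPM to 7.74 and 9.03 CPM), Aldoc (0.79), Gpt, alanine aminotransferase (0.71), Got1, aspartate aminotransferase (0.68), and Gpd2, mitochondrial glycerol-3-phosphate dehydrogenase (0.37). The lower ones were Pfkfb2 (-0.62) and Nhlrc1, the malin ubiquitin ligase of glycogen storage (-1.15). With all mice, Ppp1r3g had an edgeR unadjusted p of 0.00186 and an adjusted p of 0.268. Its log2 fold change ran from 0.92 without control mouse 1 to 1.63 without control mouse 2. Leaving out 1 mouse ended several of the other calls. Without mouse 4 the log2 fold change was 0.35 for Gpt, 0.30 for Got1 and 0.51 for Aldoc, and without control mouse 1 it was 0.51 for Aldoc, 0.31 for Gpd2 and -0.26 for Pfkfb2, none of them called. The calls of Gpd2 and Pfkfb2 were also lost without mouse 3 or mouse 4, and that of Nhlrc1 without control mouse 2 (-0.90) or mouse 3 (-0.83). Without control mouse 2 the count of higher genes was 15, and without mouse 4 it was 5. None of 20 transcription regulators and hormone arms passed the test at an unadjusted p under 0.05. Over all genes, 4.04% were higher and 3.39% lower by this rule. Mlxipl, the gene of ChREBP, had 449.2 and 405.3 CPM in the control mice, and 398.2 and 364.3 CPM in mice 3 and 4, a log2 fold change of -0.16 with an interval of -0.49 to 0.16. Both mice labelled HuR hKO were thus below both control mice, as for 18.8% of all genes. Any link between the levels of Mlxipl and Pklr was not tested. Srebf1 had a log2 fold change of 0.25, Ppargc1a of 0.19, Foxo1 of -0.16, Txnip, a glucose-induced gene, of 0.20 and Pdk4, a fasting-induced kinase, of 0.28.

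Genes that follow feeding were read beside these results, with 4.04% of all genes higher and 3.39% lower by the same rule. Of 10 fed-state lipogenic genes, 4 were higher at an unadjusted p under 0.05 and 0 lower (median log2 fold change 0.46), while their summed level, most of it Scd1, was 15850 and 28341 CPM in the control mice, and 24576 and 15347 CPM in mice 3 and 4. Of 12 fasting and cAMP genes, 2 were higher and 0 lower (median 0.14), and of 12 clock genes 11 were tested and none was called (median -0.04). Of 7 erythroid markers, 5 were tested and 3 were higher. The part of feeding, of blood and of sequencing depth in the differences of the 36 genes was not tested.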

How the data were processed

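Total liver RNA of 4 mice was sequenced, 2 per labelled group. The authors deposited whole-number counts per Ensembl gene without normalization, 1 column for each mouse, and 0 columns were left unused. Per the submitters' processing notes RSEM and GRCm38 were used. Whether the whole numbers are rounded RSEM estimates, how reads matching several genes were split and whether strand was used are not given in the sources used here, so genes with near copies or overlapping partners are uncertain. The labels call the samples separate mice.

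Symbols came from a table naming 46005 of 46603 identifiers, and coordinates and exon lengths from GENCODE M21 on GRCm38. Genes with at least 10 counts in enough libraries and 15 in total (edgeR's default filter) were kept. Counts were scaled with TMM and compared with the quasi-likelihood test of edgeR 4.0.16 (R 4.3.3), two-sided, with Benjamini-Hochberg adjustment over 13001 genes. Standard errors were derived from the test, as the absolute log2 fold change over the square root of its F statistic. The 95% intervals used these standard errors and the t distribution with the total degrees of freedom of the test. Totals ran from 13032095 to 19715577 counts. Ratios used an exact permutation test (scipy 1.17.1). Near copies were searched with BLAST 2.17.0 and promoter windows came from RefSeq (GRCm38.p6). The edgeR quasi-likelihood test was also run on counts simulated from the means and dispersions fitted to these data, and its outcome there is not given here. The alternatives were other scalings, other filters, DESeq2 1.42.0, limma-voom (limma 3.58.1) and leaving out each mouse.

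The 36 genes, their roles, the other lists and the tests were chosen with earlier results of these data known. Values in every mouse are given for genes with an unadjusted p under 0.05, the 3 highest and 3 lowest log2 fold changes and 19 regulated steps. Of the other pathway genes, at most 12 with an unadjusted p under 0.05 and 6 regulators or state genes are named. One result under this rule is not reported here. Genes outside this rule, the motif windows and the 3′ UTR counts were chosen after values were seen.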

Additional observations from a re-analysis of the deposited data

How the results depend on the processing

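With 2 mice in each group and standard errors of 0.125 to 0.356 on the log2 scale, small differences in a single gene are below what these libraries can show. The difference between the control mice was wider than the log2 fold change for 18 of the 36 genes, and that between mice 3 and 4 for 15. No paired analysis was possible because the groups share no mouse numbers. With the lone mouse of a group assumed to vary like the others, leaving out each mouse gave 1 to 5 higher calls and 0 to 2 lower calls among the 36, 0 to 1 with an adjusted p under 0.05, and a median log2 fold change of 0.07 to 0.18. Of the other pathway genes, it gave 5 to 15 higher and 1 to 4 lower calls, and 0 to 1 with an adjusted p under 0.05.

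Pfkfb3 was the only lower call, and the DESeq2 Wald test and limma-voom gave 0. Of the other pathway genes, 15 were higher with no scaling for library size, and the lower calls were 4 with upper quartile factors, 1 with no scaling, 5 with no filter on low counts and 1 with the DESeq2 Wald test. Adjusted calls among them were 3 with no scaling, 4 with no filter and 3 with the DESeq2 Wald test. With no scaling the median of the 36 was 0.42 beside 0.31 over all genes, and 26 of 36 lay above the latter. Upper quartile factors lost the calls of Gpi1 (unadjusted p = 0.0541) and Slc37a4 (0.0518) in edgeR, and no scaling those of Gpi1 (0.0671) and Pklr (0.0528). DESeq2's size factors, no filter and a minimum of 10 counts in every library kept all 8 calls.

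Alternatives were run gene by gene for the 23 genes with values in every mouse, and the other 13 were not followed singly. Of the 23, the log2 fold change changed sign for 10, none of them called with all 4 mice. With no scaling it was 0.27 for Slc2a2, 0.15 for G6pc, 0.21 for Ppp1r3b, 0.07 for Ppp1r3c, 0.19 for Pdk1 and 0.21 for G6pdx, all of them under the 0.31 of all genes. With single mice left out, the log2 fold changes ran from a value of one sign to the other. Slc2a2 ran from -0.15 without control mouse 2 to 0.05 without control mouse 1. Ldha ran from -0.03 without control mouse 1 to 0.22 without control mouse 2. Pfkfb1 ran from -0.13 without mouse 4 to 0.38 without mouse 3. Pck1 was -0.06 without control mouse 1, -0.30 without mouse 4 and 0.32 without mouse 3. G6pc ran from -0.58 without control mouse 1 to 0.32 without control mouse 2. Pygl was -0.0039 without control mouse 2, -0.02 without mouse 4 and 0.03 without mouse 3. Ppp1r3b was 0.02 without control mouse 1 or mouse 3 and -0.32 without mouse 4. Ppp1r3c ran from -0.67 without control mouse 2 to 0.23 without control mouse 1, Pdk1 from -0.35 without control mouse 1 to 0.10 without control mouse 2, and G6pdx from -0.21 to 0.0027 on the same removals. The log2 difference of Pck1 to Pklr ran from -0.84 without mouse 4 to 0.02 without mouse 3, that of G6pc to Pklr from -1.02 to -0.13, of Fbp1 to Pfkl from 0.03 to 0.23 and of Pygl to Gys2 from -0.48 to -0.15. The cause of these changes was not tested.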
